A study of Mus musculus with 12 samples.

Results

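The replication-dependent histone genes encode the bulk of the protein around which newly copied DNA is wrapped. They were taken here as every gene symbol in the deposited count table that starts with Hist1, Hist2, Hist3 or Hist4 followed by a histone type, which gave 68 of 24421 genes. Of these, 6 encode the linker histone H1, 18 encode H2A, 19 encode H2B, 12 encode H3 and 13 encode H4. The symbol rule also takes in Hist1h1t, Hist1h2aa and Hist1h2ba, which are known as testis histone genes, and Hist3h2bb-ps, which RefSeq lists as a transcribed pseudogene.

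The study measured ribosome distribution over mRNAs in B16, a mouse melanoma cell line, with and without depletion of Elp3, the catalytic subunit of Elongator, which modifies the wobble uridine of certain tRNAs. Cells were infected with lentivirus that expressed either a non-relevant short hairpin RNA (shControl) or a single hairpin directed at Elp3, called sh309 in the labels (shElp3). All groups grew in the same medium, DMEM with serum, and all carried a lentiviral hairpin. From each culture a total RNA library and a library of ribosome-protected fragments (RPF, the short mRNA pieces that a ribosome shields from nuclease, or footprints) were made with the same Illumina ribosome profiling kit. The labels tie each RPF library to the total RNA library with the same hairpin and the same letter, so the 12 libraries come from 6 cultures, lettered A to C in each of the 4 groups of 3 libraries. Nothing says that the cultures were separate infections, so p-values speak of the spread over these cultures and no wider.

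Replication-dependent histone mRNAs are made almost only in S phase, when a cell copies its DNA. Their genes lie in clusters and lack introns, and their mRNAs end in a stem-loop bound by the protein SLBP in place of a poly(A) tail. H2A, H2B, H3 and H4 form the nucleosome core, and H1 binds the DNA that enters and leaves it.

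The promoters of these genes carry short motifs that differ by type, and 5 stretches are shown because they belong to genes on which the results turn. All sequences are RefSeq's for the build GRCm38.p6, read 5′ to 3′, and end at the base before the annotated start of the gene. Capitals mark 5 motifs on either strand, namely the octamer ATTTGCAT, CCAAT, the TATA box TATAAA, the H1 box AAACACA, and GGTCCG, the core of an element of H4 promoters. The first stretch is the whole gap between a divergent H2A and H2B pair, and the others are the 150 bases before the start.

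Between Hist1h2ae and Hist1h2bg, chr13:23571221-23571399, plus strand: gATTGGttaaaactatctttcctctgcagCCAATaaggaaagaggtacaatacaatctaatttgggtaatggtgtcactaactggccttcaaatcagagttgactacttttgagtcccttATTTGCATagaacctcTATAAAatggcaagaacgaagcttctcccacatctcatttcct
Hist1h2bb, chr13:23746584-23746733, plus strand: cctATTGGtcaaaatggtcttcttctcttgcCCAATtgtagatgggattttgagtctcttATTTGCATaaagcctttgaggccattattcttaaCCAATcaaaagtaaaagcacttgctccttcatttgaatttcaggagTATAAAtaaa
Hist1h3c, chr13:23745522-23745671, minus strand: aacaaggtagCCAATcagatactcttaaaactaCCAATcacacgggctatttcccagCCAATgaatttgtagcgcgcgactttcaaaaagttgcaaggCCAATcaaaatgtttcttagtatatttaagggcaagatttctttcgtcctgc
Hist4h4, chr6:136804432-136804581, minus strand: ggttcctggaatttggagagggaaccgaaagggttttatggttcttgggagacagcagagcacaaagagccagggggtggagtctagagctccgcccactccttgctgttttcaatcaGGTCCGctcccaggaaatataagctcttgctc
Hist1h1e, chr13:23622559-23622708, minus strand: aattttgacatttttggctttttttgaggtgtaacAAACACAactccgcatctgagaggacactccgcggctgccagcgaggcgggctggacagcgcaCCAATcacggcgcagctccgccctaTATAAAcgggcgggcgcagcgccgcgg

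The octamer between Hist1h2ae and Hist1h2bg, at chr13:23571341-23571348, lies within the promoter windows of both genes. RefSeq had a promoter for 61 of the 68 genes, and the motifs were counted in the 250 bases before the start, on both strands, with 1 start per gene. The octamer was in 7 of 17 H2A and 6 of 16 H2B promoters and in none of the H1, H3 and H4 promoters, against 1.61% of all 27025 promoters. CCAAT was in all 6 H1, all 17 H2A and all 16 H2B promoters, in 8 of 10 for H3 and in 3 of 12 for H4, against 34.5% of all promoters. The H1 box was in 5 of 6 H1 promoters and in 6.22% of all, and GGTCCG was in 9 of 12 H4 promoters and in 6.82% of all. TATAAA was in 29 of the 61 histone promoters (47.5%) and in 13% of all.

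Library totals ran from 7914369 to 16527864 counts in total RNA and from 7619269 to 10998570 in RPF. Elp3 itself stood at 78.7 ± 13.3 CPM (counts scaled to library size; mean ± SD, n = 3) in shControl RNA and 37.3 ± 3.42 in shElp3 RNA, and the groups did not overlap. The log2 change of Elp3, shElp3 over shControl, was -1.08 in RNA (SE 0.22; edgeR adjusted p = 0.0831, and 0.000977 with the letter as a block) and -0.93 in RPF (SE 0.15; edgeR adjusted p = 0.0249). All 7 melanocyte lineage genes listed were tested, and their summed level was 8821 to 11770 CPM in shControl RNA and 5865 to 7399 CPM in shElp3 RNA. Summed markers in RNA stayed at or under 22.4 CPM for 7 leukocyte genes, 43.1 CPM for 6 fibroblast genes and 1.38 CPM for 4 epithelial genes. The fibroblast sum was 13.1 to 24.4 CPM in shControl and 21.8 to 43.1 CPM in shElp3, of which Dcn was at 0 in every library, and the leukocyte sum was 7.61 to 22.4 CPM and 6.23 to 11.7 CPM. The part of these markers in the histone values was not tested.

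Of the 68 histone genes, 13 had no read in any library and 36 passed the filter on low counts for both RNA and RPF. The 36 comprised 4 H1, 7 H2A, 10 H2B, 6 H3 and 9 H4 genes. The other 32 held 0.269% of the histone reads in RNA and 0.408% in RPF, and the highest of them, Hist1h2ah, had 375 reads over the 12 libraries. Because the H2A, H2B, H3 and H4 genes have near-identical coding sequences, and the handling of reads that fit several copies is not given in the sources used here, the value of any single gene is less certain than the sum of its type. In bulk samples, fewer cells in S phase and less histone mRNA per cell cannot be told apart.

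A few genes carried most of the reads of H1, H2A and H2B. Hist1h1e and Hist1h1c held 45.2% and 35.7% of the H1 level summed over the RNA libraries. Hist3h2a, the H2A gene of the small Hist3 cluster, held 49.0% of H2A, and Hist2h2bb held 64.5% of H2B in RNA and 75.7% in RPF. The H3 and H4 levels were spread more evenly, with Hist1h3a at 29.1% of H3 and Hist4h4 at 29.2% of H4 in RNA. Per kilobase of gene span, the mean shControl RNA level was 758.7 CPM for Hist2h2bb, 483.6 for Hist1h1e, 422.2 for Hist1h1c, 309.3 for Hist3h2a, 283.4 for Hist4h4, 263.3 for Hist1h4d and 93.5 for Hist1h3a.

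Every histone type was lower on average in shElp3 total RNA than in shControl total RNA. The H3 genes summed to 112.7, 180.1 and 167.7 CPM in shControl A, B and C and to 64.9, 37.4 and 31.0 CPM in shElp3, so that the shElp3 mean was 28.9% of the control mean. H2B summed to 435.2, 715.1 and 701.9 CPM in shControl and to 262.9, 209.9 and 167.2 CPM in shElp3, or 34.6% of control. For H2A the sums were 198.6, 400.1 and 374.8 CPM against 165.0, 110.0 and 98.3 CPM, or 38.3% of control. In H1, H2A, H2B and H3 every shElp3 library was lower than every shControl library.

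The H1 genes summed to 605.7, 974.8 and 1034 CPM in shControl and to 410.2, 446.3 and 249.7 CPM in shElp3, or 42.3% of control. H4 was the exception: its sums were 452.4, 510.3 and 512.6 CPM in shControl and 552.5, 247.6 and 236.9 CPM in shElp3, or 70.3% of control. The shElp3 A library held the highest H4 level of the 6 RNA libraries, and the groups overlapped. Without it the summed H4 change was -1.02 on the log2 scale in place of -0.51.

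Footprints stood further below control than RNA in each type when the means were set side by side. The RPF sums of H3 were 111.9, 284.3 and 181.9 CPM in shControl A, B and C and 39.0, 51.6 and 34 CPM in shElp3, or 21.6% of control. H2B went from 428.3, 1507 and 1276 CPM to 253.8, 298.0 and 253.5 CPM, or 25.1% of control. H2A went from 188.7, 764.3 and 562.1 CPM to 132.4, 163.7 and 139.4 CPM, or 28.7% of control. In none of these 3 types did the groups overlap.

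Footprints of H1 summed to 400.6, 1260 and 995.1 CPM in shControl and to 341.4, 383.7 and 259.4 CPM in shElp3, or 37.1% of control. H4 footprints summed to 527.3, 1257 and 1137 CPM in shControl and to 447.9, 459.7 and 382.3 CPM in shElp3, or 44.2% of control, and unlike H4 in RNA these groups did not overlap. Over all 68 genes the shElp3 mean was 44.6% of control in RNA and 33.5% in RPF. The plot of summed levels by type shows shControl A as the lowest control library in all 10 sets of values.

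**Figure D1:**
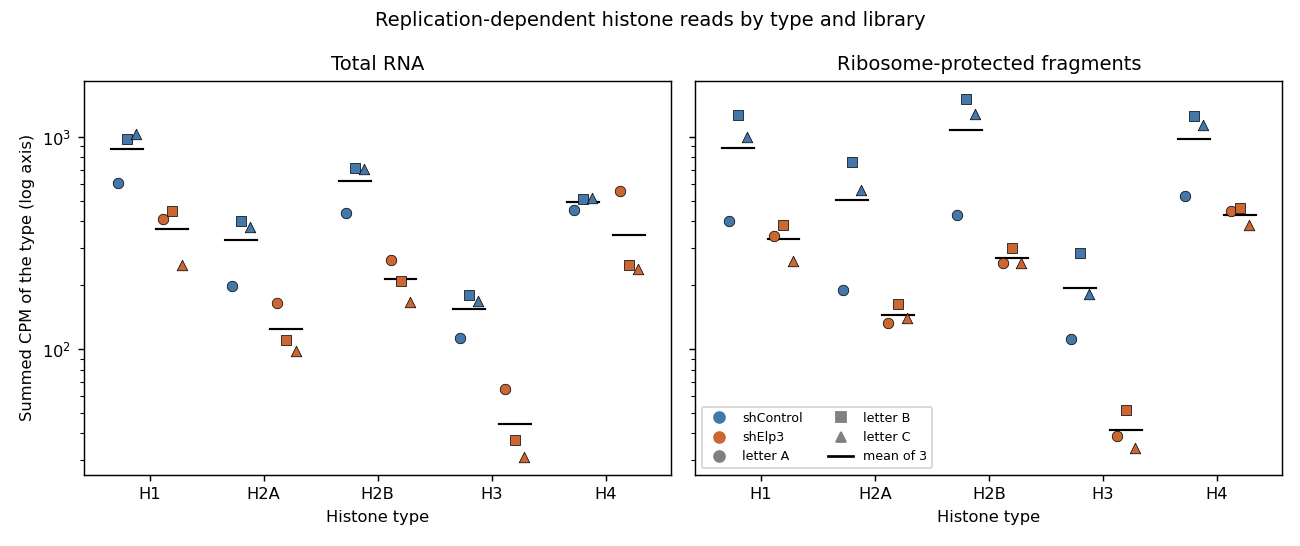
Summed CPM of each histone type (vertical log axis) in total RNA (left) and ribosome-protected fragments (right); each point is 1 library, colour gives the hairpin, shape the letter, and the bar the mean of 3. The shElp3 points lie lower than all control points in every type except H4 in RNA, where shElp3 A reached 552.5 CPM.

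Gene by gene, 7 of the 36 tested histone genes fell in total RNA (edgeR adjusted p under 0.05) and none rose, a share of 19.4% against 0.921% lower and 0.22% higher among all 12274 genes tested. The 7 were the H2B genes Hist1h2bb, Hist1h2bc, Hist1h2be and Hist1h2bk and the H3 genes Hist1h3a, Hist1h3c and Hist1h3g. All 36 log2 changes were under 0, with a median of -1.26, against a median of -0.02 and 51.9% under 0 among all genes. With the letter as a block, 23 of 36 fell (63.9%) and none rose, against 6.75% lower and 5.46% higher among all genes. The groups did not overlap, with shElp3 lower, in 23 of the 36, against 9.56% of all genes. The count of 7 rested on single libraries: it was 24 of 39 genes tested without shControl A, and 0 without shControl B or C or without any 1 of the 3 shElp3 libraries, although 23 or more genes had an unadjusted p under 0.05 in each of these fits. The median log2 change was between -1.13 and -1.89 in all 6 of them, and DESeq2 on all libraries called 22 genes lower. The share over all genes in these other fits is not given here.

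The H3 genes had the steepest single changes. Hist1h3g stood at 5.74, 16.95 and 16.97 CPM in shControl A, B and C RNA and at 1.38, 0.951 and 1.26 CPM in shElp3 RNA, a log2 change of -3.43 (SE 0.49; edgeR adjusted p = 0.0252). Hist1h3c stood at 12.97, 31.1 and 27.2 CPM against 2.76, 1.78 and 2.60 CPM, a log2 change of -3.29 (SE 0.41; edgeR adjusted p = 0.0187). Hist1h3a, the most abundant H3 gene in RNA, stood at 38.3, 56.5 and 45.9 CPM against 15.3, 9.51 and 7.18 CPM, a log2 change of -2.13 (SE 0.34; edgeR adjusted p = 0.0385). In all 3 genes shControl A was the lowest control library and still stood higher than every shElp3 library. Hist1h3e, at 22.1, 35.6 and 39.6 CPM against 20.3, 14.3 and 9.86 CPM, did not pass the test (log2 change -1.13, edgeR adjusted p = 0.225, and 0.0196 with the block). Hist1h3f, at 29.97, 33.3 and 29.6 CPM against 19.4, 9.03 and 7.34 CPM, did not pass either (-1.37, edgeR adjusted p = 0.184, and 0.00188 with the block).

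Among H2B genes, Hist1h2bk had the largest change in RNA, with 4.32, 9.16 and 7.65 CPM in shControl and 1.26, 0.713 and 0.394 CPM in shElp3 (log2 change -3.10, SE 0.51; edgeR adjusted p = 0.0398). With 0.713 and 0.394 CPM in shElp3 B and C, Hist1h2bk passed the filter on low counts through the control libraries. Hist1h2bb, the second most abundant H2B gene, stood at 43.6, 102.9 and 92.4 CPM against 15.7, 12.4 and 12.8 CPM (log2 change -2.55, SE 0.36; edgeR adjusted p = 0.0249). Neither gene's groups overlapped. Hist2h2bb, the gene with the most H2B reads, stood at 291.7, 412.3 and 418.0 CPM against 200.9, 160.5 and 124.9 CPM. Its log2 change of -1.21 (SE 0.28) did not pass (edgeR adjusted p = 0.106, and 0.00291 with the block), and without it the H2B sums differed by -2.25 on the log2 scale in place of -1.53. RefSeq gives Hist1h2be a span of 37455 bases and Hist1h2bc one of 8282 bases, so the counts of these 2 may hold reads of longer transcripts than the histone mRNA.

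Of the H2A genes none passed in RNA, and 5 of 7 passed with the block. Hist1h2ab stood at 7.23, 51.3 and 45.7 CPM in shControl and at 4.62, 6.65 and 4.02 CPM in shElp3 (log2 change -2.77, SE 0.68; edgeR adjusted p = 0.134, and 0.00121 with the block). Hist1h2ae had 6.56, 40.4 and 39.3 CPM against 4.98, 4.40 and 3.55 CPM (-2.73, SE 0.65; edgeR adjusted p = 0.118, and 0.00298 with the block). In both genes shControl A lay within 3 CPM of the nearest shElp3 library. Hist3h2a, the most abundant, stood at 128.2, 179.9 and 163.3 CPM against 93.9, 48.1 and 47.2 CPM (-1.31, SE 0.33; edgeR adjusted p = 0.144, and 0.00224 with the block). The 2 H2A genes of the Hist2 cluster differed least: Hist2h2ab stood at 8.65, 11.4 and 10.1 CPM against 10.5, 9.86 and 9.15 CPM (-0.03). Hist2h2ac stood at 29.7, 46.2 and 45.4 CPM against 39.5, 28.9 and 23.7 CPM (-0.39), and the groups overlapped in both.

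No H1 gene passed in RNA without the block, and 3 of 4 passed with it. Hist1h1e stood at 344.1, 368.7 and 421.7 CPM in shControl and at 211.7, 223.0 and 112.4 CPM in shElp3 (log2 change -1.05, SE 0.31; edgeR adjusted p = 0.202, and 0.00779 with the block). Hist1h1c stood at 192.0, 357.9 and 368.4 CPM against 144.1, 162.7 and 103.4 CPM (-1.16, SE 0.33; edgeR adjusted p = 0.187, and 0.00671 with the block). The shElp3 libraries were lower than every control library in both genes. Hist1h1t, the testis linker histone gene, was low throughout, at 8.57, 9.26 and 11.2 CPM against 6.90, 8.79 and 4.58 CPM (-0.52, edgeR adjusted p = 0.591).

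The H4 genes had the median nearest to 0 of the 5 types in RNA, a log2 change of -0.74 over the 9 tested, none of which passed without the block and 1 with it (Hist1h4f, -1.19, blocked edgeR adjusted p = 0.0161). Hist4h4, the lone gene of the Hist4 locus, stood at 155.7, 113.2 and 104.3 CPM in shControl and at 214.0, 73.8 and 71.5 CPM in shElp3 (-0.05, SE 0.46; edgeR adjusted p = 0.985). Hist1h4d stood at 104.1, 104.2 and 109.3 CPM against 107.9, 51.9 and 49.4 CPM (-0.60, SE 0.33; edgeR adjusted p = 0.556). Hist1h4c stood at 70.5, 53.1 and 53.1 CPM against 77.5, 29.8 and 32.1 CPM (-0.34, SE 0.40; edgeR adjusted p = 0.832). In all 3 genes the shElp3 A library was higher than at least 2 control libraries, while shElp3 B and C were lower than every control library.

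In footprints, 16 of the 36 tested histone genes fell (edgeR adjusted p under 0.05) and none rose, a share of 44.4% against 3.06% lower and 1.77% higher among all 11343 genes tested. They were 4 of 7 H2A genes (Hist1h2ab, Hist1h2ac, Hist1h2ae and Hist1h2af), 6 of 10 H2B genes, 5 of 6 H3 genes and 1 of 9 H4 genes (Hist1h4d). The H2B genes were Hist1h2bb, Hist1h2bc, Hist1h2be, Hist1h2bg, Hist2h2bb and the pseudogene Hist3h2bb-ps, and the H3 genes were Hist1h3a, Hist1h3c, Hist1h3e, Hist1h3f and Hist1h3g. All 36 log2 changes were under 0, with a median of -1.86, against -0.01 and 50.9% under 0 among all genes. The groups did not overlap, with shElp3 lower, in 23 of 36, against 15.3% of all genes. Of the 16 genes, 6 had also passed in RNA. The count was 38 of 38 genes tested without shControl A, 3 of 36 without shControl B, 3 of 36 without shControl C, and 0 of 38 without shElp3 A, B or C. In each of those last 5 fits 25 or more genes had an unadjusted p under 0.05. DESeq2 on all libraries called 28 genes lower. For these other fits, too, the share over all genes is not given. On simulated counts, the RNA test recovered 1% of 2-fold and 57% of 4-fold changes. The RPF test recovered 40% and 93% of them. The counts of 7 and 16 thus do not tell whether more histone genes fell in footprints than in RNA.

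**Figure D2:**
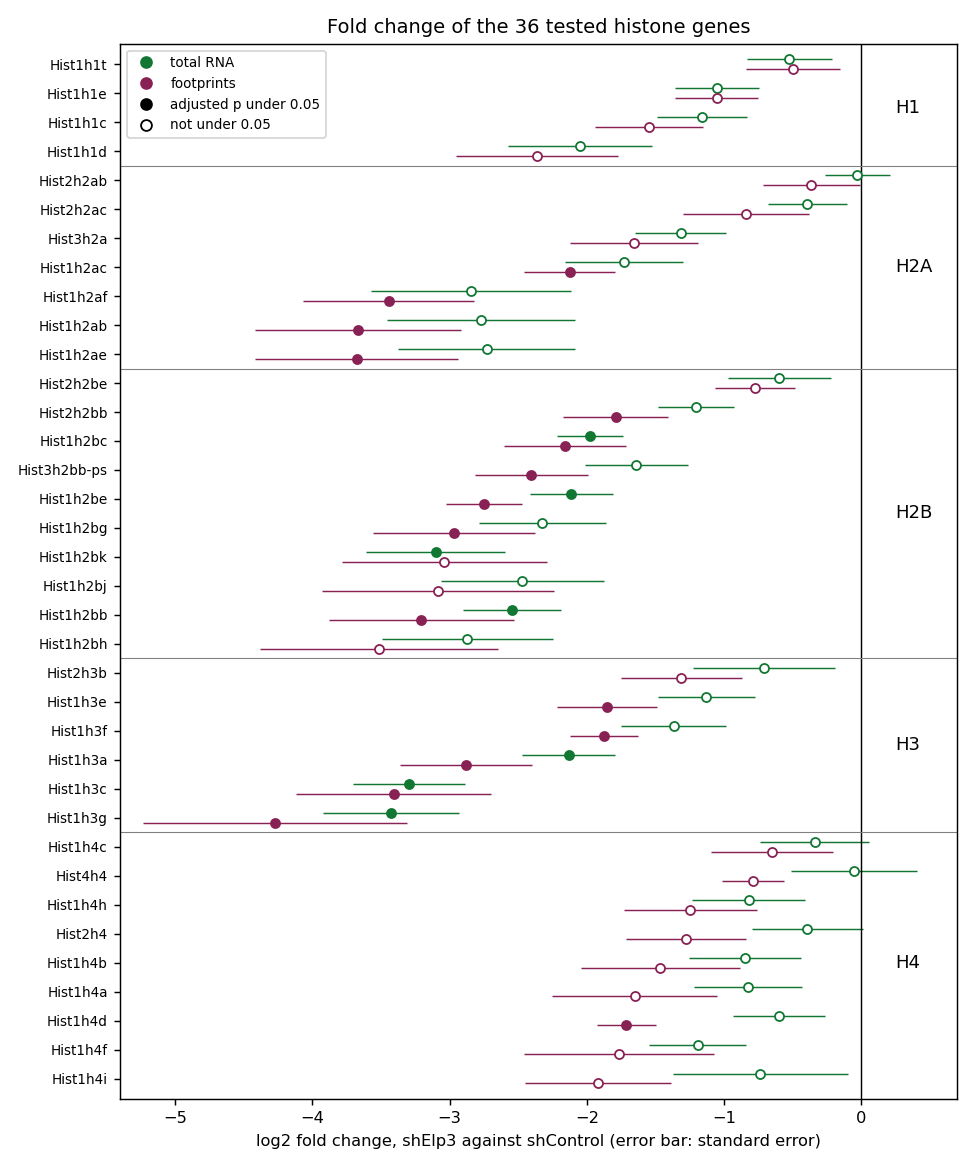
Log2 fold change, shElp3 against shControl, of the 36 tested histone genes by type in total RNA (green) and footprints (purple), with the standard error as bars and filled symbols for an edgeR adjusted p under 0.05. All points lie left of 0; footprint values run from -4.27 (Hist1h3g) to -0.36 (Hist2h2ab).

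Hist1h3g had the most negative estimate in RPF, with 2.24, 33.4 and 21.6 CPM in shControl A, B and C and 0.251, 1.65 and 0.965 CPM in shElp3 (log2 change -4.27, SE 0.96; edgeR adjusted p = 0.0485). The shElp3 level was under 1 CPM in 2 of 3 libraries, so Hist1h3g passed the filter on low counts through the control libraries. Hist1h2ae followed, with 3.64, 31.4 and 29.1 CPM against 1.88, 1.65 and 1.502 CPM (-3.68, SE 0.74; edgeR adjusted p = 0.0384). Hist1h2ab stood at 7.003, 67.96 and 27.8 CPM against 2.38, 3.09 and 2.57 CPM (-3.67, SE 0.75; edgeR adjusted p = 0.0394). The groups did not overlap in these 3 genes, but shControl A lay far nearer to the shElp3 libraries than to shControl B and C. Hist1h2bb showed the same order of libraries, with 20.03, 165.8 and 133.7 CPM against 9.16, 13.3 and 12.1 CPM (-3.21, SE 0.68; edgeR adjusted p = 0.0409).

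Several other core histone genes, Hist2h2bb among them, were lower by smaller factors. Hist2h2bb, with the highest footprint level of all 68, stood at 335.4, 1071 and 951.7 CPM in shControl and at 215.7, 249.6 and 216.8 CPM in shElp3 (log2 change -1.79, SE 0.38; edgeR adjusted p = 0.0425). Hist1h3f, the H3 gene with the most footprints, stood at 70.7, 105.5 and 65.6 CPM against 21.5, 27.2 and 17.3 CPM (-1.87, SE 0.25; edgeR adjusted p = 0.0163). Hist1h3e stood at 16.8, 36.2 and 23.1 CPM against 7.66, 9.17 and 4.29 CPM (-1.85, SE 0.36; edgeR adjusted p = 0.0372). No shElp3 library reached a control library in any of the 3. In Hist3h2a, with 71.0, 313.3 and 262.8 CPM against 69.8, 71.9 and 63.5 CPM, shControl A lay within the shElp3 range and the change did not pass (-1.66, SE 0.46; edgeR adjusted p = 0.0861). Hist2h2ac (23.2, 91.1 and 79.5 CPM against 31.1, 48.4 and 28.9 CPM) and Hist2h2ab (7.84, 22.2 and 18.3 CPM against 10.5, 14.7 and 12.4 CPM) overlapped between groups and did not pass (-0.84 and -0.36).

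All 9 tested H4 genes had footprint estimates under 0, with a median log2 change of -1.47, and Hist1h4d alone passed without the block. Hist1h4d stood at 195.5, 282.3 and 190.1 CPM in shControl and at 82.2, 66.6 and 55.0 CPM in shElp3 (log2 change -1.71, SE 0.22; edgeR adjusted p = 0.0156). Its shControl A library was higher than shControl C, and the groups did not overlap. Hist4h4 stood at 212.5, 380.4 and 345.8 CPM against 203.6, 181.4 and 157.8 CPM (-0.79, SE 0.22; edgeR adjusted p = 0.0897). Hist1h4c stood at 37.4, 128.6 and 144.7 CPM against 54.0, 83.8 and 60.7 CPM (-0.65, SE 0.44; edgeR adjusted p = 0.425), with shControl A lower than all 3 shElp3 libraries. The linker histone genes Hist1h1e (215.0, 499.0 and 375.7 CPM against 186.4, 203.7 and 134.5 CPM) and Hist1h1c (129.3, 432.7 and 347.5 CPM against 104.7, 119.0 and 87.8 CPM) did not overlap between groups. Neither passed without the block (edgeR adjusted p = 0.091 and 0.0669). With the block Hist1h1c passed and Hist1h1e did not (edgeR adjusted p = 0.0447 and 0.0616), although the letters did not pair the samples in RPF.

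Other tested genes passed in neither fraction without the block. Hist1h1d, the third linker histone gene by level, stood at 60.5, 238.2 and 231.8 CPM in shControl RNA and at 47.2, 51.6 and 29.2 CPM in shElp3 RNA (log2 change -2.05, SE 0.53; edgeR adjusted p = 0.148, and 0.00347 with the block). Its footprints stood at 49.3, 308.6 and 255.6 CPM against 42.1, 48.7 and 28.8 CPM (-2.36, SE 0.59; edgeR adjusted p = 0.0652), so that shControl A lay close to shElp3 in RPF. Hist1h4f, the H4 gene with the second most control footprints after Hist4h4 in shControl C, stood at 22.1, 209.7 and 236.6 CPM against 40.3, 50.7 and 46.8 CPM in RPF (-1.77, SE 0.69; edgeR adjusted p = 0.177). Its shControl A library was the lowest of all 6. Among H2B genes, Hist1h2bh and Hist1h2bj had log2 changes of -2.87 and -2.47 in RNA and of -3.51 and -3.09 in RPF. None of these passed without the block. With it both genes passed in RNA (edgeR adjusted p = 0.0015 and 0.000934) and in RPF (edgeR adjusted p = 0.0207 and 0.046). Hist2h3b, an H3 gene of the Hist2 cluster, had -0.71 and -1.31, and Hist2h4, an H4 gene there, had -0.39 and -1.28, again without passing.

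The size of the difference varied with the letter. Within letter A the 68 genes together stood at 80.7% of control in RNA, within B at 37.8% and within C at 28.1%. In RPF the same shares were 73.3%, 26.7% and 25.7%. The median gene had a log2 ratio of -0.43 within A, -1.77 within B and -1.96 within C in RNA, and of -0.44, -2.09 and -2.21 in RPF, while the median of all genes lay between -0.0145 and 0.0132 within every letter of both fractions. In RNA 25 of 36 genes were lower in shElp3 within A and all 36 within B and within C, and in RPF the counts were 26, 36 and 36.

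H4 in RNA was the only type and fraction above control within a letter. Its RNA sum was 122% of control within A, 48.5% within B and 46.2% within C, whereas H3 was 57.5%, 20.8% and 18.5% of control. In RPF, H4 was at 84.9%, 36.6% and 33.6% of control and H3 at 34.9%, 18.2% and 18.7%. The letter A control library stood low: shControl A was lower than both shControl B and C in 32 of the 36 genes in RNA and 33 of 36 in RPF, against 45.6% and 44.7% of all genes. The median histone gene in shControl A stood at 0.59 times the mean of B and C in RNA and at 0.28 times in RPF. Summed over 28 S phase genes such as those for DNA polymerase and replication licensing, shControl A stood at 1443 CPM in RNA against 2426 and 2037 CPM in B and C, and at 1664 CPM in RPF against 4756 and 3825 CPM. The part of these S phase levels in the histone values was not tested.

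**Figure D3:**
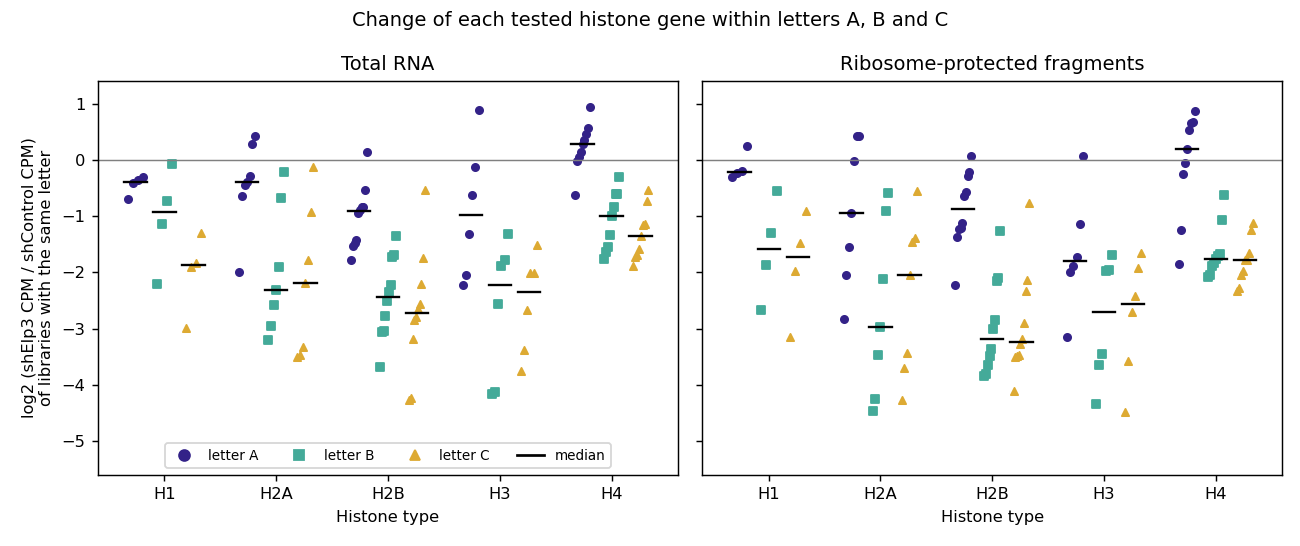
Log2 ratio of shElp3 to shControl CPM (vertical axis) of each of the 36 tested histone genes within letters A, B and C, by type, in total RNA (left) and footprints (right); bars are medians. Letter A lies nearest to 0 in each type, with an H4 median of 0.29 in RNA, and letters B and C lie lower.

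In control cells footprints could be set against RNA gene by gene, as a ratio of counts relative to other genes. The share of each mRNA that is coding was not taken into account, so a higher ratio need not mean denser ribosomes. Of 39 histone genes tested, 5 had more footprints than RNA relative to other genes (12.8%, against 8.86% higher among all 11747 genes tested). None had fewer, against 15.1% lower among all genes. The share of 12.8% is near that of all genes. The 5 were Hist1h2ac (log2 ratio 1.60), Hist1h3f (1.55), Hist4h4 (1.51), the pseudogene Hist3h2bb-ps (1.48) and Hist1h4d (1.25), with edgeR adjusted p from 0.00756 to 0.0456. The handling of reads that fit several copies is not given, so footprints counted on the pseudogene are uncertain. Every type had a median above 0, from 0.27 for H1 to 1.14 for H4, against -0.05 for all genes. The cultures differed: the median gene's log2 ratio of RPF to RNA was -0.40 in shControl A, 1.07 in B and 0.62 in C, and in A it was under 0 for H1, H2B, H3 and H4. With the culture's letter as a block, 10 were higher and 2 lower (Hist1h2bh and Hist1h4b), against 15.7% and 20.2% of all genes. The count of 5 became 15 without the RPF library of shControl A, 4 without its RNA library, 1 without the RNA or without the RPF library of shControl B, and 2 without the RNA or without the RPF library of shControl C.

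The highest and lowest ratios were those of 3 H2A genes and 1 H4 gene. Hist1h2ah had 0.895, 3.94 and 2.49 CPM in shControl RNA and 0.98, 18.5 and 7.11 CPM in shControl RPF (log2 ratio 2.05; edgeR adjusted p = 0.141, and 0.0341 with the block). Hist1h2af had 4.77, 24.8 and 27.6 CPM in RNA and 21.4, 106.4 and 70.8 CPM in RPF (1.97; edgeR adjusted p = 0.0866, and 0.00677 with the block). Hist1h2ad had 0.149, 2.29 and 2.397 CPM in RNA and 0, 0.596 and 1.00 CPM in RPF (-1.30; edgeR adjusted p = 0.401, and 0.0845 with the block). Hist1h4b had 15.1, 27.6 and 23.3 CPM in RNA and 1.82, 11.03 and 11.4 CPM in RPF (-1.25; edgeR adjusted p = 0.157, and 0.0424 with the block). The estimates for copies of 1 type thus lay on both sides of 0, and of these 4 none passed without the block and 3 passed with it.

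Whether shElp3 changed footprints beyond the change in RNA was tested in 1 model over the 12 libraries, as a fraction by hairpin interaction. None of the 36 histone genes passed and none of all 11238 genes tested did (0% called), with or without the culture as a block, and DESeq2 called none of the histone genes. On simulated counts this test, without the block, recovered 2% of 2-fold and 40% of 4-fold changes, so most changes of either size would be missed. At an unadjusted p under 0.05 there was 1 histone gene, Hist1h4d, against 0.552% of all genes (62). Its log2 change in footprints per RNA was -1.16 (SE 0.41). Of the 36 estimates, 35 were under 0, with a median of -0.64 (-0.40 with the culture as a block), against a median of -0.03 and 54.2% under 0 among all genes.

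By type, the median log2 change in footprints per RNA was -0.20 for H1, -0.49 for H2A, -0.67 for H2B, -0.71 for H3 and -0.78 for H4. With the culture as a block these medians were -0.08, -0.58, -0.37, -0.49 and -0.52, so that the order of the types was not the same. The summed H4 genes had a log2 ratio of RPF to RNA of 0.40, 1.44 and 1.26 in shControl A, B and C and of -0.19, 0.96 and 0.79 in shElp3, a difference of -0.59, -0.48 and -0.48 within the letters. For H1 the ratio was -0.42, 0.51 and 0.06 against -0.15, -0.15 and 0.15, and the differences within letters were 0.27, -0.65 and 0.09. The summed H2A genes differed by -0.31, -0.43 and -0.10 within the letters, H2B by -0.09, -0.64 and -0.28, and H3 by -0.79, -0.26 and -0.0035. H1 was thus the only type that was not lower within every letter. The most negative estimate was that of Hist1h4i (-1.24), a gene with 1.47 to 3.88 CPM in shControl RNA. Hist1h2bk (0.02) and Hist1h1t (-0.02) had the highest estimates.

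**Figure D4:**
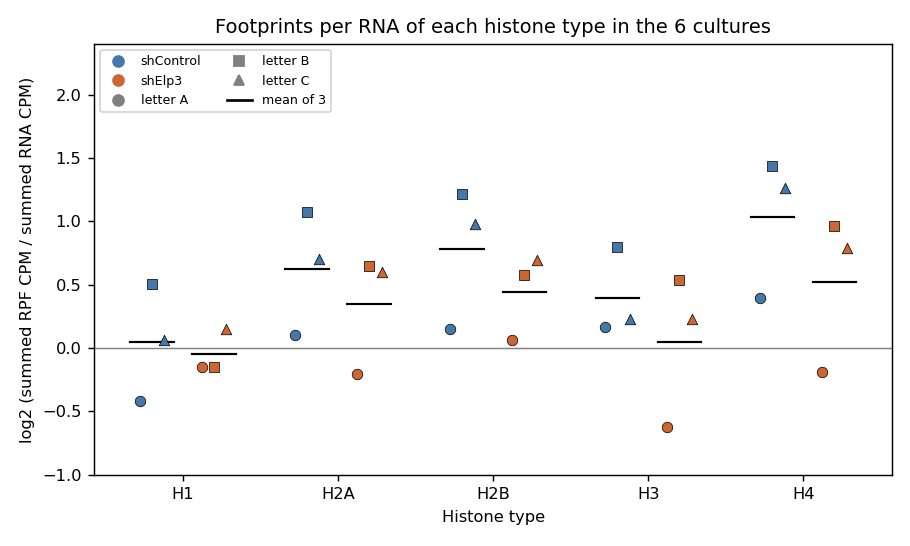
Log2 ratio of summed RPF to summed RNA CPM of each histone type (vertical axis) in the 6 cultures; colour gives the hairpin, shape the letter, and bars the mean of 3. H4 ran from 0.40 to 1.44 in shControl and from -0.19 to 0.96 in shElp3, and letter A was the lowest of its group in every type.

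The genes lie in the Hist1, Hist2 and Hist3 clusters and at the Hist4 locus, and reads were counted in few stretches of them. How reads that fit several copies were handled is not given, so a stretch with few counts is not shown to be silent. On chromosome 13 the Hist1 genes fell into 3 stretches (GRCm38). The first, chr13:21715711-21837530, holds 17 genes that together had 37 reads over the 12 libraries, with no read at all in 8 of them. The third, chr13:23531044-23934913, holds 31 genes with 161864 reads, of which 24 were tested. Their median log2 change was -1.86 in RNA and -2.14 in RPF, and 14 of the 16 genes that fell in RPF lie there. Between them, 5 genes at chr13:22035122-22043658 had 3095 reads, with medians of -2.47 and -3.04 over the 3 tested.

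Outside chromosome 13 the medians lay nearer to 0. The Hist2 cluster, chr3:96219885-96270192, has 10 genes, of which 6 were tested and 4 had no read, with medians of -0.50 in RNA and -1.06 in RPF. In the Hist3 cluster, chr11:58948911-58955192, the 2 tested genes Hist3h2a and Hist3h2bb-ps had medians of -1.48 and -2.03. Hist4h4, at chr6:136803993-136804431, had log2 changes of -0.05 and -0.79. The difference between clusters was not tested, and the types are not spread evenly over them.

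Many H2A and H2B genes lie side by side, a short gap apart, and the estimates of such neighbours were set side by side. Hist1h2ae and Hist1h2bg, whose shared 179 bases are shown above, had log2 changes of -2.73 and -2.33 in RNA and -3.68 and -2.97 in RPF. Hist1h2ac and Hist1h2bc, 239 bases apart, had -1.73 and -1.98 in RNA and -2.13 and -2.16 in RPF. Hist2h2ac and Hist2h2be, 191 bases apart, had -0.39 and -0.60 in RNA and -0.84 and -0.78 in RPF. Hist3h2a and Hist3h2bb-ps, 172 bases apart, had -1.31 and -1.64 in RNA and -1.66 and -2.404 in RPF. Only these 4 pairs had both genes tested with a gap under 250 bases, too few for a comparison with other neighbours.

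Hist1h1c, Hist1h2bc and Hist2h2be are known also to make polyadenylated mRNAs. Hist1h2bc stood at 32.6, 42.2 and 38.8 CPM in shControl RNA and at 11.3, 9.03 and 8.44 CPM in shElp3 RNA (log2 change -1.98, SE 0.24; edgeR adjusted p = 0.0187), with no overlap, and it also fell in RPF (-2.16; edgeR adjusted p = 0.0396). Hist1h1c had -1.16 in RNA and Hist2h2be had -0.60, neither of which passed without the block, and Hist1h1c passed with it (edgeR adjusted p = 0.00671).

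Genes that make and process histone mRNA or package histones had medians nearer to 0 than the histone genes, a difference that was not tested. Of 27 genes for histone mRNA synthesis, processing and decay, 1 fell in RNA and 2 of 26 in RPF, with medians of -0.34 and -0.35 on the log2 scale. With the block 7 of the 27 fell in RNA. The one that fell in both was Cdk2, the S phase kinase that phosphorylates the histone gene coactivator NPAT, from 186.6 ± 41.8 to 48.7 ± 8.34 CPM in RNA (log2 change -1.94, SE 0.27; edgeR adjusted p = 0.0234) and by -2.02 in RPF (edgeR adjusted p = 0.0104). Its partner Ccne1, cyclin E1, fell in RPF (-1.15, edgeR adjusted p = 0.0278) and stood at -1.12 in RNA (edgeR adjusted p = 0.0806, and 0.00126 with the block). Slbp, named here after its values were seen because its protein binds the histone stem-loop, stood at 66.9 ± 3.22 CPM in shControl RNA and 35.8 ± 6.57 CPM in shElp3 RNA (-0.90, edgeR adjusted p = 0.13, and 0.0039 with the block) and at -1.21 in RPF (edgeR adjusted p = 0.0535).

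Of 21 histone chaperone and acetylation genes none fell in RNA (9 with the block) and 1 fell in RPF, with medians of -0.30 in both. That gene was Asf1b, a chaperone of H3 and H4 (-1.58 in RPF, edgeR adjusted p = 0.0275; -1.99 in RNA, edgeR adjusted p = 0.0613, and 0.000267 with the block). Of 28 S phase genes, 11 fell in RNA and 11 in RPF, with medians of -1.65 and -1.66, and with the block 27 fell in RNA. Among all genes the shares were 0.921% in RNA, 3.06% in RPF and 6.75% in RNA with the block. Cdc45, part of the replicative helicase, changed by -2.16 in RNA and -2.32 in RPF, Cdt1, which loads the MCM complex, by -1.75 and -1.998, and Pold1, a DNA polymerase subunit, by -2.04 and -1.95, all with edgeR adjusted p under 0.05. Rfc4, part of the clamp loader, fell in RNA (-1.53, edgeR adjusted p = 0.0249) and stood at -1.51 in RPF (edgeR adjusted p = 0.0904). E2f1, named after its values were seen, was the single S phase gene that rose in RPF (0.67, edgeR adjusted p = 0.0375), and it stood at -0.12 in RNA (edgeR adjusted p = 0.956). Earlier results of these data had shown cell cycle genes lower in shElp3, so the S phase list is no independent evidence of its direction.

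Within letters the S phase genes moved less unevenly than the histone genes: their RNA sum was 45.6%, 28.7% and 36.5% of control within A, B and C, and their RPF sum 55.4%, 25.2% and 34.7%. The replication-independent histone variants, which are made outside S phase too, had 1 of 9 tested genes lower in RNA (4 with the block) and 2 of 9 in RPF, with medians of -0.52 and -0.50. The gene that fell in both was Cenpa, the centromeric H3 variant (-2.27 in RNA, edgeR adjusted p = 0.0177; -2.63 in RPF, edgeR adjusted p = 0.0197). H2afx, the H2A variant phosphorylated at DNA breaks, stood at -2.14 in RNA (edgeR adjusted p = 0.0869, and 1.17e-05 with the block) and fell by 2.56 on the log2 scale in RPF (edgeR adjusted p = 0.0485).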

How the data were processed

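The 12 libraries cover both fractions, total RNA and RPF, of 6 cultures of B16 cells. The authors deposited 1 table of whole-number read counts per gene symbol for 24421 genes, without normalization. The submitters' processing notes name TopHat2 2.1.1, Bowtie, HTSeq and bcl2fastq, and the mouse build mm10. How reads that match several places were treated, which annotation was counted and whether strand was used is not given in the sources used here; the first of these bears directly on histone copies.

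Groups came from the labels. Genes were kept with filterByExpr (minimum count 10), scaled by TMM and tested over all genes with edgeR 4.0.16 (glmQLFit, glmQLFTest; R 4.3.3), Benjamini-Hochberg adjustment and a threshold of 0.05. The change in footprints per RNA was the interaction of fraction and hairpin over the 12 libraries. CPM used TMM library sizes within a fraction, or over all 12 libraries for RPF to RNA ratios. The SE is the size of the log2 fold change over the root of F. Scripts were tested on simulated counts.

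Letters pair the samples if same-letter libraries deviate together. Their correlations across hairpins were 0.828, 0.475 and 0.622 in RNA, 0.805, 0.509 and 0.537 in the RPF to RNA ratio, and 0.482, 0.506 and 0.414 between RNA and RPF of control cultures, so blocked values are given beside those results where they change a call. Letters B and C correlated as much across letters in RNA (0.727 and 0.615), so the pairing separates mainly A from the rest.

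Any histone gene could be named. Those given in every library were the 2 most abundant of each type in RNA and in RPF, the 3 most negative and 3 most positive changes in RNA and in RPF, and the 2 at either end of the other comparisons. Genes of other lists were named by adjusted p among those called. The genes, lists and the rule were chosen with earlier results of these data known. Promoters and positions are RefSeq's for GRCm38.p6, matched by synonym (67 of 68 genes, and Hist1h2ap matched more than 1 entry). Alternatives were other size factors and count filters, DESeq2 1.42.0, the letter or culture as a block, letters B and C alone, and leaving out each library.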

Additional observations from a re-analysis of the deposited data

How the results depend on the processing

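The number of histone genes that passed was the value most open to the settings. In total RNA (7 genes) it was 22 with DESeq2, 23 with the replicate block and 36 with letters B and C only, and it ran from 0 to 24 when 1 library was left out. In footprints (16 genes) it was 26 without a count filter, 28 with DESeq2 and 37 with letters B and C only, and it ran from 0 to 38 when 1 library was left out. In RPF the letters did not pair the samples (same-letter correlations 0.352, -0.112 and 0.229). With the replicate block 22 genes passed in RPF (61.1% of those tested), against 3.91% lower and 1.96% higher among all genes. For footprints against RNA in control cells (5 genes) it was 9 with DESeq2, 12 with the replicate block, 29 with letters B and C only, and 1 to 15 when 1 library was left out. For the change in footprints per RNA it was 0 in every alternative run, the replicate block included. Apart from the replicate block, the share over all genes under these settings is not given here. The counts thus do not tell whether histone genes gained calls more than other genes did. Of the summed levels, the RNA changes with letters B and C only were -1.90 for H2A, -1.91 for H2B, -2.35 for H3 and -1.08 for H4 on the log2 scale. Without its most abundant gene the H2B sum changed by -2.25 in RNA and -2.79 in RPF. The H4 change in RNA ran from -1.02 to -0.30 when 1 library was left out. Among single genes the sign turned only for estimates near 0. Hist4h4 in RNA ran from -0.78 to 0.22 and Hist2h2ab in RNA from -0.13 to 0.0801 when 1 library was left out. For footprints per RNA, Hist1h1t was 0.0115 with other size factors, 0.0118 with DESeq2 and 0.0794 with the replicate block, and ran from -0.31 to 0.22 when 1 library was left out. Hist1h2bk was -0.012 without a count filter and ran from -0.48 to 0.66. The causes were not tested. The 32 genes that did not pass the filter together had 344 reads in RNA and 576 in RPF, and 13 of them had no read. Why they had so few was not tested, and the handling of reads that fit several copies is not given.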
